A study of Homo sapiens with 8 samples.

Results

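Genes for 10 inflammatory chemokines and cytokines, CCL2, CCL3, CCL4, CXCL2, CXCL8, CXCL16, IL1B, IL1RN, TNF and OSM, were followed in NB4 cells given all-trans retinoic acid (ATRA) after knockdown of the histone demethylase KDM3B. They were chosen by gene symbol, as ligands linked to the differentiation syndrome that ATRA can cause in acute promyelocytic leukemia (APL), and all 10 were among the 37526 gene names listed for every library. NB4 cells come from an APL and express the fusion protein PML/RARα. RNA was sequenced from 8 libraries in 4 groups of 2: cells with the control vector (scramble), cells with a short hairpin RNA against KDM3B (shKDM3B), and both again after ATRA (scramble+ATRA and shKDM3B+ATRA). Both cell types were stable, puromycin-selected NB4 lines made with the lentiviral vector pLVX-shRNA2-puro. The control is an empty vector in the labels but a scrambled hairpin in the study's methods, and the KDM3B hairpin that was sequenced is not given in the sources used here. ATRA was used at 1 µM per the labels, for 24 or 48 h, and the labels do not tie a library to either time. Nothing in the labels says that the 2 libraries of a group came from separate cultures, so P-values measure only the spread between these libraries.

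Chemokines draw leukocytes along a gradient: the CC ligands CCL2, CCL3 and CCL4 mainly monocytes and lymphocytes, and the CXC ligands CXCL2 and CXCL8 mainly neutrophils. TNF and IL-1β, encoded by IL1B, activate endothelium and other leukocytes, IL-1 receptor antagonist, encoded by IL1RN, blocks the IL-1 receptor, and oncostatin M, encoded by OSM, signals through receptors that contain gp130. In APL, ATRA releases the block to granulocytic differentiation, and the maturing cells can secrete cytokines and enter tissues such as the lung, which is the setting of differentiation syndrome.

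The counts on genes ranged from 9708739 to 33017787 per library. Levels are given as CPM, the count of a gene over the total of its library on a fixed scale, after TMM scaling, a correction for differences in library composition, and a mean is given with its SD over the 2 libraries of a group. The share of uniquely aligned reads that fell outside genes was 8.49% to 9.62% in the untreated libraries and 9.36% in replicate 1 of scramble+ATRA, but 50.02% in replicate 2 of scramble+ATRA and 51.4% and 51.0% in the shKDM3B+ATRA libraries. The untreated libraries listed 56470 gene names and the treated ones 56609, so that in every comparison across ATRA the gene models and the treatment cannot be told apart. KDM3B itself was at 187 and 188 CPM in the scramble libraries and at 76.3 and 86.1 CPM in the shKDM3B libraries. With ATRA, it was at 196 and 121 CPM in scramble and at 52.4 and 57.3 CPM in shKDM3B. Its level was therefore lower in every knockdown library than in every scramble library. The promyelocytic marker MPO, the myeloperoxidase of primary granules, reached 615 to 9513 CPM, whereas 3 other primary granule genes, ELANE, PRTN3 and AZU1, stayed at or below 1.47 CPM in all 8 libraries. CTSG, a further gene of these granules, was at 104.6 to 148.8 CPM in the untreated libraries and at 1.71 to 4.10 CPM in the treated ones.

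CCL2, the monocyte attractant MCP-1, lies at chr17:34255274-34257208 on the plus strand (hg38, GENCODE v44) and was the most abundant of the 10 genes after ATRA. Its level was 62.3 and 15.0 CPM in scramble, 0.257 and 1.38 CPM in shKDM3B, 472 and 709 CPM in scramble+ATRA, and 57.3 and 179 CPM in shKDM3B+ATRA. The groups ranked from scramble+ATRA (591 ± 168 CPM) through shKDM3B+ATRA (118 ± 86.0 CPM) and scramble (38.7 ± 33.5 CPM) to shKDM3B (0.818 ± 0.794 CPM), and only the second and the third of these overlapped. In shKDM3B, the level rested on 5 and 45 counts.

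CXCL8, the neutrophil attractant interleukin-8, lies at chr4:73740519-73743716 on the plus strand. It stood at 11.9 and 8.64 CPM in scramble, 27.1 and 31.9 CPM in shKDM3B, 77.8 and 192 CPM in scramble+ATRA, and 21.7 and 82.1 CPM in shKDM3B+ATRA. Unlike CCL2, it was higher in shKDM3B than in scramble before ATRA. After ATRA, the lower scramble library lay below the higher shKDM3B library, and the lower shKDM3B+ATRA library lay below both untreated shKDM3B libraries.

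IL1B, at chr2:112829751-112836816 on the minus strand, had 1.86 and 1.64 CPM in scramble, 0.770 and 0.981 CPM in shKDM3B, 11.6 and 16.5 CPM in scramble+ATRA, and 1.68 and 5.92 CPM in shKDM3B+ATRA. The scramble+ATRA libraries were higher than the other 6, and those of shKDM3B+ATRA overlapped with untreated scramble. IL1RN, at chr2:113099315-113134016 on the plus strand, had 4.02 and 3.31 CPM in scramble and 3.49 and 3.25 CPM in shKDM3B. With ATRA, IL1RN was at 0.368 and 0.369 CPM in scramble and at 0.105 and 0.201 CPM in shKDM3B. The agonist gene and the antagonist gene thus stood in opposite order before and after ATRA: IL1RN was above IL1B in each of the 4 untreated libraries and below it in each of the 4 treated ones. On the scale of CPM per kilobase of the canonical transcript, on which levels of different genes can be compared, the order was the same, with means of 2.15 for IL1RN and 1.16 for IL1B in scramble and of 0.216 and 9.34 in scramble+ATRA.

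OSM, at chr22:30262829-30266851 on the minus strand, was expressed at 5.47 and 3.02 CPM in scramble, 1.80 and 2.21 CPM in shKDM3B, 6.80 and 8.20 CPM in scramble+ATRA, and 1.89 and 2.31 CPM in shKDM3B+ATRA. Both knockdown groups lay below both scramble groups, and they overlapped each other. CXCL2, another CXC ligand for neutrophils at chr4:74097040-74099196 on the minus strand, was low throughout, at 0.552 and 0.923 CPM in scramble, 0.719 and 1.26 CPM in shKDM3B, 0.123 and 0.184 CPM in scramble+ATRA, and 0 and 0.201 CPM in shKDM3B+ATRA. CXCL16, at chr17:4733533-4739928 on the minus strand, encodes a chemokine that is made as a membrane protein and can be shed. It had 1 count or none in each untreated library, and 0.490 and 1.66 CPM in scramble+ATRA and 0.947 and 1.51 CPM in shKDM3B+ATRA. Exons of other genes share 6.16% of the CXCL16 exon length and 74.6% of that of CCL3, described below, and none of that of the other 8 genes.

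**Figure D1:**
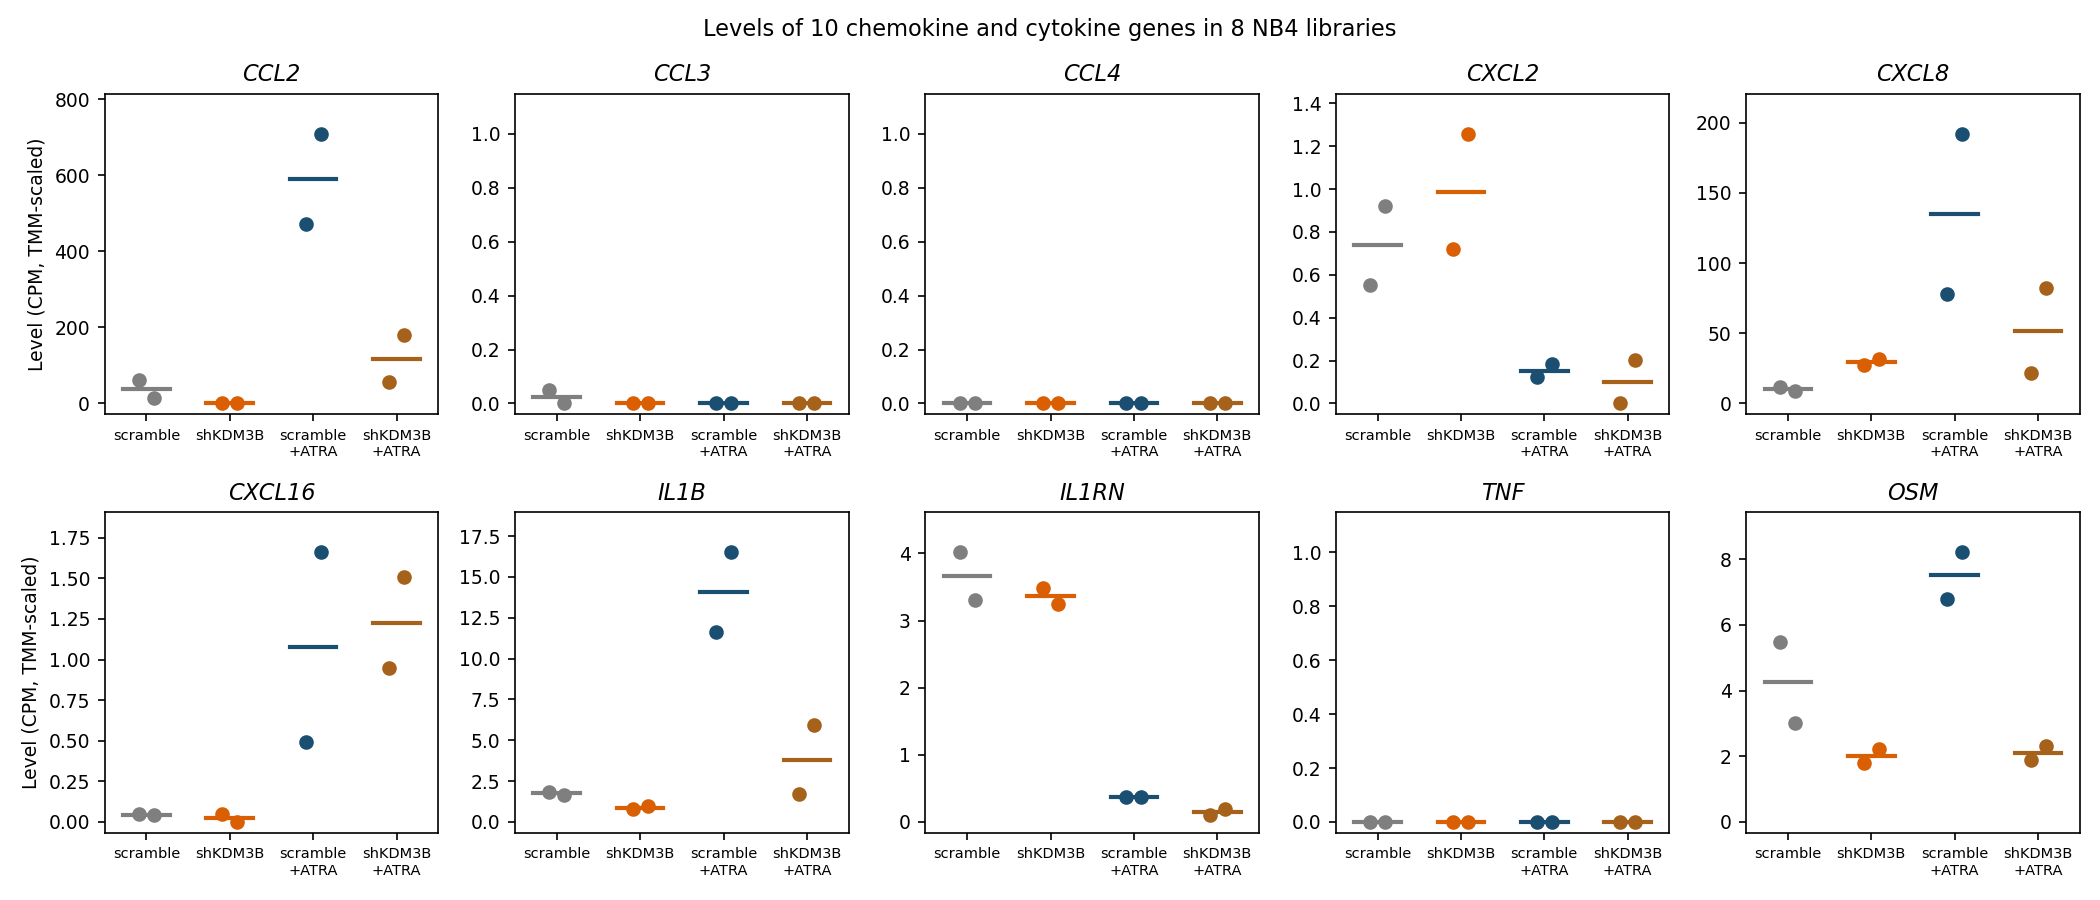
Level of each of the 10 genes in CPM after TMM scaling (vertical axis, linear, its own range in each panel) in the 4 groups of NB4 libraries. Each point is 1 library and each line the mean of 2. CCL2, CXCL8 and IL1B are highest in scramble+ATRA, IL1RN and CXCL2 are lowest in the treated groups, and CCL3, CCL4 and TNF lie at or near 0 throughout.

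Per kilobase of transcript, CCL2 led the 10 genes in scramble (52.2 ± 45.2), scramble+ATRA (797 ± 227) and shKDM3B+ATRA (159 ± 116), whereas CXCL8 led in shKDM3B (17.9 ± 2.07, against 1.10 ± 1.07 for CCL2). In the treated groups, replicate 2 was above replicate 1 for each of the 7 genes with counts, in scramble+ATRA as in shKDM3B+ATRA. For IL1RN in scramble+ATRA the values were nearly equal.

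TNF, CCL3 and CCL4 gave almost no counts: TNF (chr6:31575565-31578336, plus strand) and CCL4 (chr17:36103827-36105621, plus strand) had 0 counts in all 8 libraries, and CCL3 (chr17:36088256-36090169, minus strand) had 1 count in replicate 1 of scramble and 0 elsewhere. A count of 0 allows up to 3 counts, or 0.092 to 0.316 CPM depending on the library, a limit that covers counting error only. These limits assume that reads of the gene could be counted. The hg38 assembly also holds alternate contigs, which are second versions of certain regions, and a read that aligns equally well to both places is not counted as unique. Windows of 100 bases along the exons of TNF had an exact copy on an alternate contig in 29 of 29 cases, those of CCL3 in 12 of 12 and those of CCL4 in 9 of 9. None of the windows of the other 7 genes had one. The overlap of CCL3 exons with those of other genes also bears on whether its reads could be counted.

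Low counts and copies were also set side by side for all protein-coding genes. Among protein-coding genes whose sampled exon windows (at most 5 a gene) were all copied on an alternate contig, 76.5% of 554 had at most 10 counts in every library, against 35.3% of 17573 genes without such copies. TUBB, a tubulin gene, had copies for 45 of 45 windows and 0 to 4 counts per library, and TAF15, an RNA-binding protein gene, had copies for 21 of 21 windows and 0 to 8 counts. Both were chosen after their values were seen, and the part of the copies in the low counts was not tested. The neighbours within 500 kb of the 3 genes were also low, with 84.2% of those of TNF, 89.3% of those of CCL3 and 83.3% of those of CCL4 at 10 counts or fewer in every library, against 36.9% of all protein-coding names. Low neighbours were not particular to them, since the share was 100% (7 of 7) for CCL2, 76.9% for CXCL2 and 71.4% for CXCL8, which had no copies and were counted. Whether the authors aligned to alternate contigs is not given in the sources used here. The 0 counts of TNF, CCL3 and CCL4 are therefore reported as counts, not as absence of expression, and no test was possible for them.

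**Figure D2:**
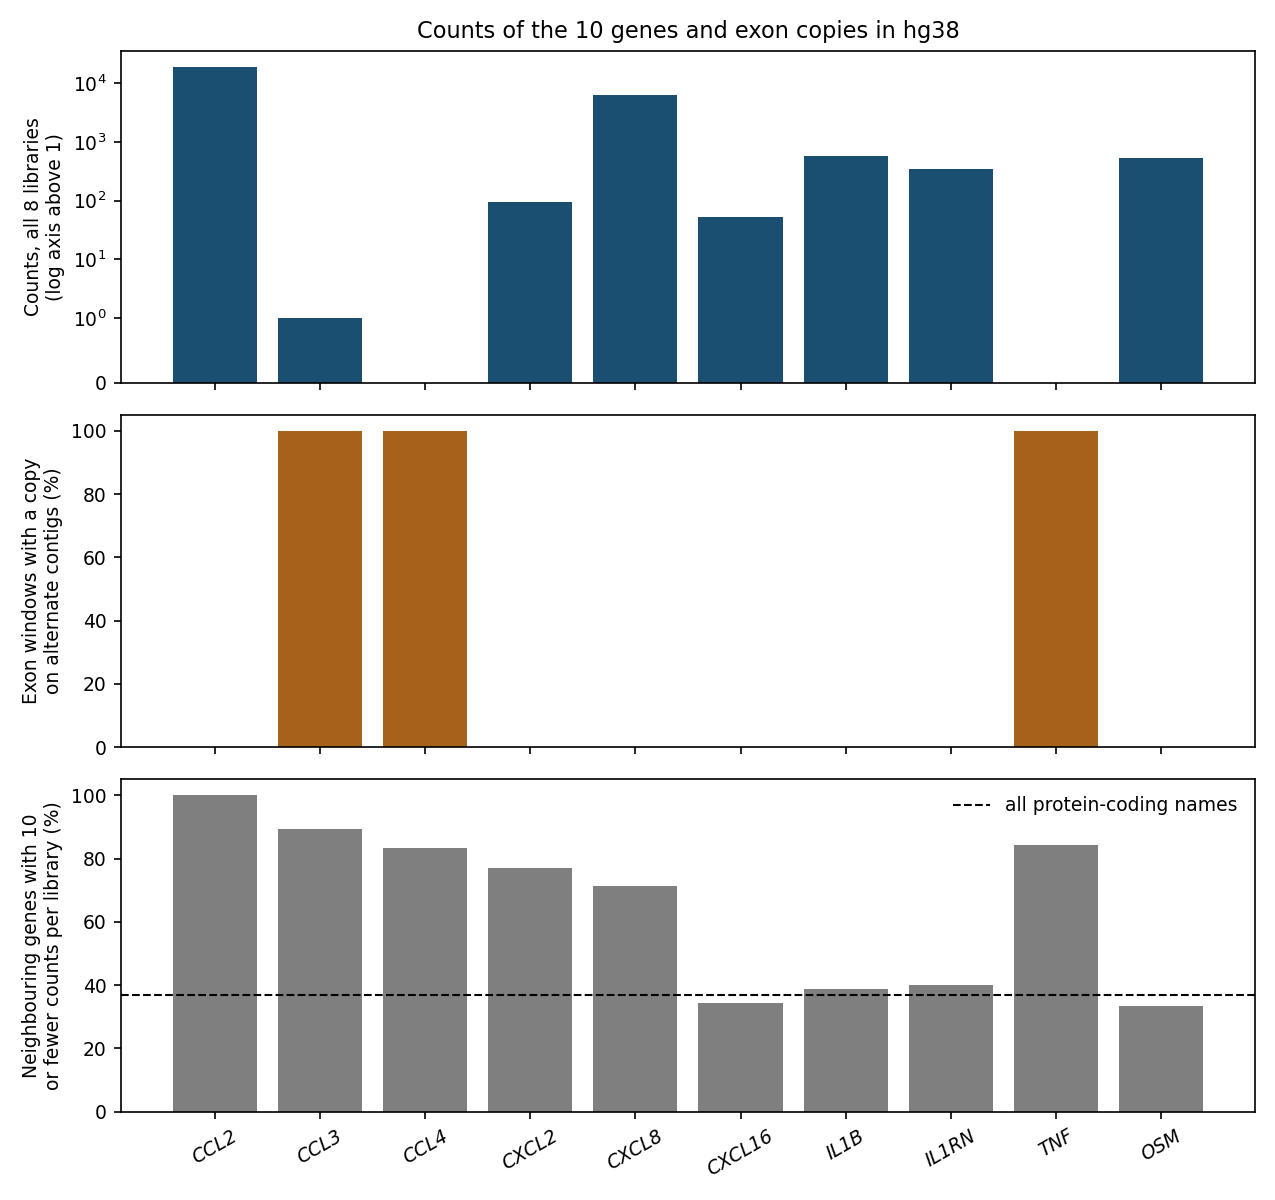
For each of the 10 genes, counts summed over all 8 libraries (top, log axis above 1), the percentage of 100-base exon windows with an exact copy on an hg38 alternate contig (middle), and the percentage of neighbouring genes with 10 or fewer counts in every library (bottom, dashed line at 36.9% for all protein-coding names). TNF, CCL3 and CCL4 are the genes at 0 or 1 count and the only ones with copies, which cover 100% of their windows.

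The response to ATRA in scramble cells was examined first. CCL2, CXCL8 and IL1B were upregulated and IL1RN and CXCL2 were downregulated, 5 of the 6 genes that passed the low-count filter. IL1RN and CXCL2 passed it only through the untreated group, where they were high, so that a fall was built into their selection and the 5 of 6 is a description. Calls rest on edgeR's quasi-likelihood test and need an unadjusted P-value below 0.05 together with a change of at least 1.5-fold. Of all 12429 genes tested, 25.9% were called, 15% higher and 10.8% lower. CCL2 rose 15.7-fold (log2 fold change 3.97, standard error 0.65, Benjamini-Hochberg adjusted p = 0.00826 by edgeR), with 5.30 without replicate 1 of scramble and 3.27 without replicate 2. CXCL8 rose 13.5-fold (3.76, standard error 0.47, adjusted p = 0.00276), and IL1B rose 8.23-fold (3.04, standard error 0.38, adjusted p = 0.00272). IL1RN dropped 9.56-fold (−3.26, standard error 0.50, adjusted p = 0.00633). CCL2, CXCL8 and IL1B passed with the adjusted p as well. So did IL1RN, but its adjusted p is no support, since it passed the filter only through the untreated group. The share of all genes with the adjusted p was 12.9%, 7.84% higher and 5.06% lower.

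CXCL2 was called on the unadjusted P-value alone (log2 fold change −2.23, standard error 0.80, adjusted p = 0.12 by edgeR). Its change rested on 33 counts without and 4 with ATRA, a ratio of 5.12 with a 95% interval from 1.82 to 19.9 that covers counting error only, and the call was lost with DESeq2, without the low-count filter, and without replicate 1 of scramble or of scramble+ATRA. OSM, at 0.86 (standard error 0.42, adjusted p = 0.236), did not pass, although both treated libraries were above both untreated ones, and it was called only without replicate 1 of scramble+ATRA among the fits with 1 library left out (0.99, unadjusted P = 0.028). CXCL16 fell under the filter, with 26 counts with and 2 without ATRA, a ratio of 20.9 (counting interval 5.24 to 182). On these few counts, it was called higher without the filter and in the fit of all 8 libraries. The treated libraries differed in the share of reads outside genes, and with replicate 1 of scramble+ATRA alone, whose share was like that of the untreated libraries, the log2 fold change was 3.62 for CCL2, 2.93 for CXCL8, 2.74 for IL1B and −3.29 for IL1RN.

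In shKDM3B cells, ATRA again raised CCL2 and IL1B and lowered IL1RN and CXCL2, and CXCL16 rose as well, 5 of the 7 genes tested. Of these, CXCL16 passed the low-count filter only through the treated group and IL1RN and CXCL2 only through the untreated one. These 3 genes had to differ, so that their calls are no support for a response and the 5 of 7 is a description. The background was higher here, with 42.2% of 12756 genes called, 24% higher and 18.3% lower, or 23% and 17.3% with the adjusted p, which the 5 genes passed too. CCL2 rose 131-fold (log2 fold change 7.04, standard error 0.66, adjusted p = 2.28e-05 by edgeR with Benjamini-Hochberg adjustment), from the lowest level of any group to a level still below that of scramble+ATRA. It was 6.03 without replicate 2 of shKDM3B+ATRA and 8.85 without replicate 2 of shKDM3B. IL1B rose 4.44-fold (2.15, standard error 0.55, adjusted p = 0.00925), but without replicate 2 of shKDM3B+ATRA the log2 fold change was 0.98 and the call was lost.

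The other calls in these cells rested on few counts in one of the groups and are given as ratios with counting intervals. IL1RN was 21.7-fold lower with ATRA (interval 7.29 to 106, 174 against 3 counts, edgeR adjusted p = 0.000127). CXCL2 was 10.3-fold lower (interval 2.71 to 87, 55 against 2 counts, adjusted p = 0.0133). The CXCL2 call was lost without replicate 1 of shKDM3B+ATRA, and CXCL2 fell under the filter without replicate 2 of shKDM3B. CXCL16 was 64.2-fold higher (interval 10.5 to 2640, 24 against 1 count, adjusted p = 0.000637), and it fell under the filter without replicate 2 of shKDM3B+ATRA. CXCL8 did not pass in this fit (log2 fold change 0.87, standard error 0.45, adjusted p = 0.137). It was called higher without the low-count filter (0.84, adjusted p = 6.75e-06 by edgeR), although the treated and untreated groups overlapped. The same call was made with any library other than replicate 2 of shKDM3B+ATRA left out (0.71 to 1.51). Without that library, the log2 fold change turned to −0.39 and was not called. OSM stood at 0.11 (standard error 0.35, adjusted p = 0.807). Both treated libraries had over 50% of reads outside genes and both untreated ones under 10%, so that this share and the treatment cannot be told apart in shKDM3B cells.

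Knockdown of KDM3B without ATRA lowered CCL2, OSM and IL1B and raised CXCL8, 4 of the 6 genes tested, where 7.01% of 13855 genes were called, 3.48% higher and 3.53% lower. CCL2 was 42.6-fold lower in shKDM3B than in scramble (log2 fold change −5.41, standard error 0.80, unadjusted P = 0.000123, adjusted p = 0.101 by edgeR), and it lay between −7.21 (without replicate 2 of shKDM3B) and −4.08 (without replicate 1 of scramble) with 1 library left out. CXCL8 was 2.88-fold higher (1.52, standard error 0.23, unadjusted P = 0.000139, adjusted p = 0.105), and between 1.32 and 1.77 with any library left out. OSM was 2.1-fold lower (−1.07, standard error 0.38, adjusted p = 0.366), a call that was lost without replicate 1 of scramble, where the log2 fold change was −0.58. IL1B was 1.96-fold lower (−0.97, standard error 0.40, adjusted p = 0.452), and its call was lost with DESeq2, in the fit of all 8 libraries and with each of the 4 libraries left out.

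In this fit none of the 4 passed with edgeR's adjusted p, for which 0% of genes were called higher and 0.0217% lower, against 1411 genes at an unadjusted P under 0.05. With DESeq2, CCL2 (adjusted p = 0.00473) and CXCL8 (adjusted p = 3.87e-06) did. Both also passed with edgeR's adjusted p without the low-count filter (3.14e-65 and 1.75e-07). They did not with DESeq2 size factors (0.0782 and 0.0924) or in the fit of all 8 libraries (0.257 and 0.679). The unfiltered values are not read as support, since CCL2 stood at 62.3 and 15.0 CPM in the 2 scramble libraries. IL1RN (log2 fold change −0.12, standard error 0.30) and CXCL2 (0.44, standard error 0.50) did not pass, and their groups overlapped.

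Under ATRA, CCL2 and OSM were lower in shKDM3B+ATRA than in scramble+ATRA, 2 of the 5 genes tested, and none was higher, where 6.79% of 14281 genes were called, 4.37% lower and 2.42% higher. CCL2 was 4.98-fold lower (log2 fold change −2.32, standard error 0.67, unadjusted P = 0.0293, adjusted p = 0.502 by edgeR), with −1.71 without replicate 1 of shKDM3B+ATRA and −3.36 without replicate 2. OSM was 3.54-fold lower (−1.82, standard error 0.33, unadjusted P = 0.00666, adjusted p = 0.502), and without replicate 1 or 2 of shKDM3B+ATRA the log2 fold change was −1.69 (unadjusted P = 0.069) or −1.97 (unadjusted P = 0.0528) and not called. No gene passed with edgeR's adjusted p in this fit, against 1383 at an unadjusted P under 0.05, whereas with DESeq2 both CCL2 (adjusted p = 0.00518) and OSM (adjusted p = 0.0449) did.

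IL1B stood at −1.88 on the log2 scale (standard error 0.73, unadjusted P = 0.0669) and was not called in this fit, whereas DESeq2, the fit without the low-count filter and the fit of all 8 libraries called it. CXCL8 was at −1.37 (standard error 0.85, unadjusted P = 0.188), with overlapping groups, and CXCL16 at 0.22 (standard error 0.82). IL1RN, under the filter, had 10 counts in scramble+ATRA and 3 in shKDM3B+ATRA, a ratio of 2.39 with a counting interval from 0.615 to 13.5. With replicate 2 of scramble+ATRA alone as the control, whose share of reads outside genes was like that of the knockdown libraries, the log2 fold change was −2.57 for CCL2, −1.95 for OSM, −2.09 for IL1B and −1.87 for CXCL8, and all 4 were called, with the spread taken from the 2 knockdown libraries alone, while CXCL16 turned to −0.42. With replicate 1 of scramble+ATRA alone as the control, it was −2.00 for CCL2, −1.69 for OSM and −1.60 for IL1B, all called, and −0.58 for CXCL8, which was not called.

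In an interaction test over all 8 libraries, the response to ATRA of CCL2 and CXCL8 was called different between the cell types. These calls had opposite signs and rest on the unadjusted P alone in this fit. On the log2 scale, CCL2 rose more in shKDM3B cells, by 3.09 (standard error 1.24, unadjusted P = 0.0401). CXCL8 rose less, by −2.90 (standard error 0.90, unadjusted P = 0.0137). The CCL2 ratio in shKDM3B cells started from 5 and 45 counts. In CPM, mean CCL2 went from 0.818 to 118 in shKDM3B cells and from 38.7 to 591 in scramble cells, a smaller gain in level after knockdown. Of 13528 genes tested, the difference was called for 3.99%, larger in shKDM3B cells for 1.27% and smaller for 2.72%. In this fit neither passed with adjustment (both adjusted p = 1 by edgeR), and no gene did. The 607 genes at an unadjusted P under 0.05 were a smaller share of those tested than that threshold. Without the low-count filter, edgeR's adjusted p was 1.31e-05 for CCL2 (3.07) and 2.55e-07 for CXCL8 (−2.91), whereas with DESeq2 it was 0.788 and 0.0858. The unfiltered values are not read as support, since libraries of a group lay far apart, at 62.3 and 15.0 CPM for CCL2 in scramble. The CCL2 difference lost its call without replicate 1 of scramble (1.74), the library with the higher of the 2 untreated levels, without replicate 1 of shKDM3B (2.47) and without replicate 2 of shKDM3B+ATRA (2.06). CXCL8 kept the negative sign in all of them, from −4.16 to −2.11, and lost its call without replicate 2 of scramble (−2.69, unadjusted P = 0.0509). IL1B (−0.90, standard error 0.79), IL1RN (−1.10, standard error 0.66) and OSM (−0.75, standard error 0.54) did not pass, although IL1B was called without replicate 2 of shKDM3B+ATRA (−2.07, unadjusted P = 0.0117).

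**Figure D3:**
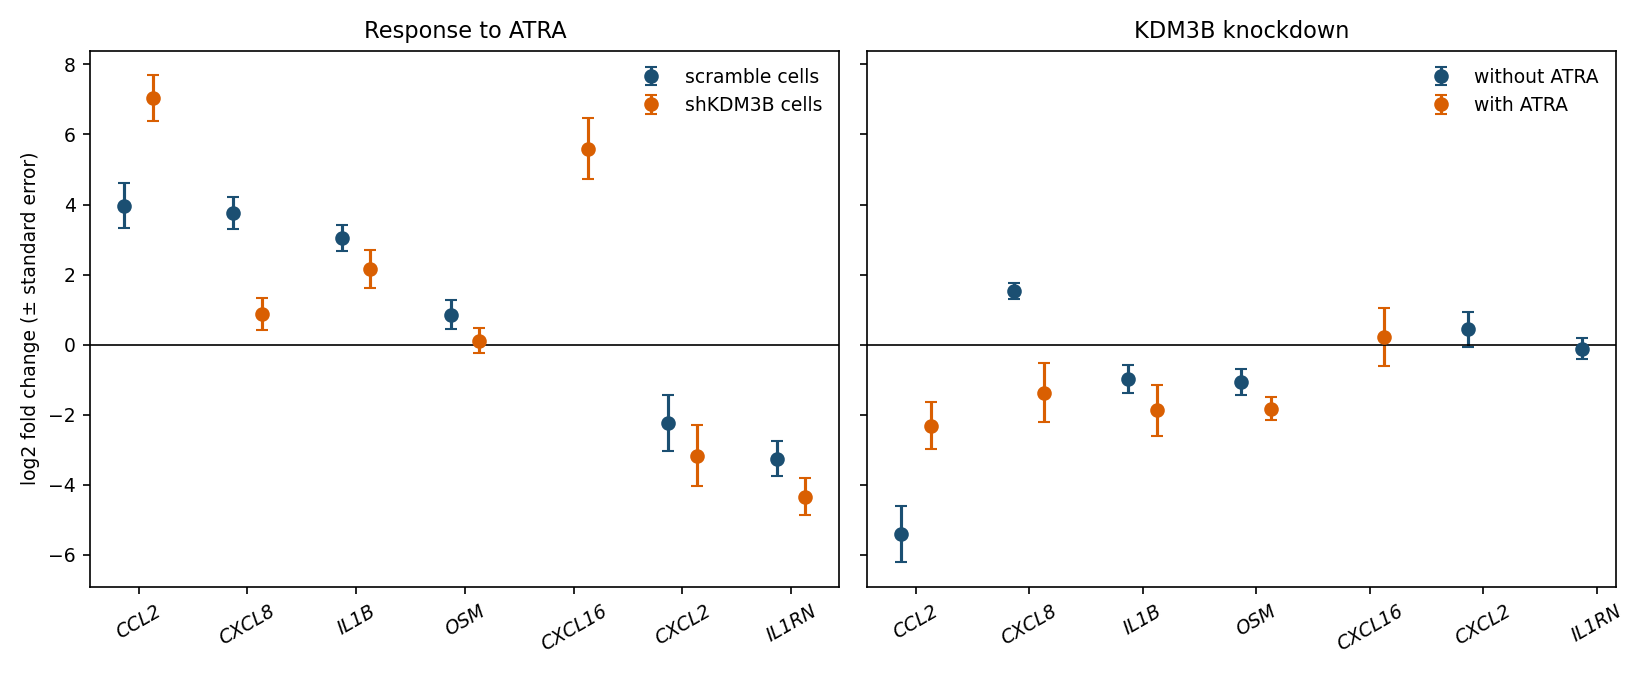
Log2 fold change (vertical axis, points, with the standard error as bars) of each gene that was tested, for ATRA against no ATRA in scramble and in shKDM3B cells (left) and for KDM3B knockdown against scramble without and with ATRA (right), by edgeR with 2 libraries in each group. CCL2 moves from 3.97 to 7.04 on the left and from −5.41 to −2.32 on the right, and CXCL8 lies at 3.76 and 0.87 on the left.

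Markers of other cell types were set beside these results. The summed level of 8 monocyte and macrophage markers was 38.6 to 40.2 CPM in scramble, 18.2 to 31.1 CPM in shKDM3B, 71.9 to 117 CPM in scramble+ATRA and 16.4 to 28.8 CPM in shKDM3B+ATRA. CD163 was at 0 in all libraries and CD14 at or below 0.645 CPM. The summed level of 7 granulocytic genes was 587 to 595, 377 to 401, 3640 to 4000 and 1820 to 2200 CPM in the same order of groups. For 8 lymphoid markers it was 40.3 to 52.5, 23.6 to 29.2, 55.3 to 74.6 and 28.6 to 39.6 CPM, with the B-cell gene MS4A1 at 0 throughout, and for 8 epithelial and stromal markers it lay between 18.2 and 27.5 CPM in all libraries. The monocyte, granulocytic and lymphoid sums were thus highest in scramble+ATRA, as were CCL2, CXCL8, IL1B and OSM. The sums do not speak for each marker of a list. FCN1 was the largest part of the monocyte sum, at 31.7 and 31.9 CPM in scramble and 87.4 and 37.9 CPM in scramble+ATRA. NKG7 was the largest part of the lymphoid sum, at 46.0 and 33.6 CPM in scramble and 33.45 and 48.7 CPM in scramble+ATRA. In bulk RNA, a different number of cells of a type and a different amount of RNA per cell cannot be told apart, and the part of these markers in the results on CCL2, CXCL8, IL1B and OSM was not tested.

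Promoter sequences of the genes that moved with ATRA were read from RefSeq (GRCh38.p14), which gave a window for 6 of the 10 genes, and none for CCL2, CCL4, OSM and CXCL16. Shown are the 250 bases before the start of CXCL8 and IL1B, which rose, and of CXCL2, which fell. These genes were picked with their motif matches known. IL1RN, which fell and also had an AP-1 match, is not shown. Capitals mark matches to the motifs searched on both strands: the NF-kB site, the AP-1 site (TGANTCA), the TATA box (TATAAA), the RARE half-site (AGGTCA), the PU.1 site (GAGGAAG) and the C/EBP site (TTNNGCAA). The CXCL8 window is at chr4:73740319-73740568 on the plus strand. The IL1B window is at chr2:112836780-112837029 and the CXCL2 window at chr4:74099196-74099445, both on the minus strand. Each window ends just before the start given by RefSeq. That start lies inside the GENCODE gene span given above, so that each window reaches into that span.
CXCL8: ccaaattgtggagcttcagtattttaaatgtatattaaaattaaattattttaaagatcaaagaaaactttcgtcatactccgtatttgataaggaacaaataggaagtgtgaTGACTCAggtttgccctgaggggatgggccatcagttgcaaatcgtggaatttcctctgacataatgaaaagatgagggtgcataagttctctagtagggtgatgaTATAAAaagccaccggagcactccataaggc
IL1B: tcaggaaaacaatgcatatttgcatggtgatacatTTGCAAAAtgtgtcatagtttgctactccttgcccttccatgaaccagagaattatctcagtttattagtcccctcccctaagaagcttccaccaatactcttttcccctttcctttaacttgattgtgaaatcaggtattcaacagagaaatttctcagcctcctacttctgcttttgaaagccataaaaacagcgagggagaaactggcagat
CXCL2: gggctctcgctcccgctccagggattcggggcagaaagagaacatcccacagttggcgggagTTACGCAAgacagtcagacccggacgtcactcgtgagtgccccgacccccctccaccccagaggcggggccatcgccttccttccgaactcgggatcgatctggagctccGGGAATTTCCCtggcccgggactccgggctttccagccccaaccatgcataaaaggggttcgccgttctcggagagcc
Distances are counted from the RefSeq start, not from the GENCODE one. The CXCL8 window held an AP-1 match 137 to 131 bases and a TATA box 31 to 26 bases before the RefSeq start. The IL1B window held a C/EBP match 215 to 208 bases before it. The CXCL2 window held NF-kB matches on both strands that overlap each other (78 to 68 bases before it) and a C/EBP match (188 to 181 bases). IL1RN, which fell, had 3 windows, one with an AP-1 match and one with a TATA box. None of the windows of these 4 genes held the PU.1 letters or the RARE half-site. Of 35116 promoter windows in the table, 9.96% held the NF-kB site, 6.57% the AP-1 site, 10.7% the TATA box, 12.1% the RARE half-site, 11.2% the PU.1 site and 9.05% the C/EBP site. A match describes the letters only, and its absence says only that these letters are not in the window.

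The receptors for the 10 ligands were examined next, from a list of 16 genes. ATRA raised 6 of the 8 receptors tested in scramble cells, where 15% of all genes were called higher. In shKDM3B cells it raised 7 of 9 and lowered 1, where 24% of all genes were called higher and 18.3% lower. Of these, 1 of the 6, 3 of the 7 and the receptor that was lowered passed the low-count filter only through the group where they were high, and these counts are a description. CCR1, a receptor for CCL3 among others, rose from 10.3 and 12.3 CPM in scramble to 74.4 and 74.6 CPM in scramble+ATRA (log2 fold change 2.76, standard error 0.23, adjusted p = 0.000608 by edgeR). CXCR2, through which neutrophils sense CXCL2 and CXCL8, went from 5.27 and 3.48 CPM to 19.6 and 25.3 CPM (2.39, standard error 0.35, adjusted p = 0.00517). TNFRSF1B, which encodes TNF receptor 2, had a log2 fold change of 3.16 (adjusted p = 0.0035), ACKR2, a decoy receptor for CC chemokines, of 2.29 (adjusted p = 0.0196), and IL1RAP, the accessory chain of the IL-1 receptor, of 0.88 (adjusted p = 0.0345). TNFRSF1A (0.55) and IL6ST, which encodes gp130 (−0.17), were not called.

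CCR2, the receptor for CCL2, was low in all groups, at 0.351 and 0.713 CPM in scramble and 1.44 and 1.47 CPM in shKDM3B (log2 fold change 1.42, unadjusted P = 0.0174), and at most 0.184 CPM after ATRA. OSMR, which pairs with gp130 to bind oncostatin M, had 5.26 and 3.82 CPM in shKDM3B+ATRA, and 0 and 0.645 CPM in scramble+ATRA. In the untreated libraries, OSMR had at most 0.0513 CPM. OSMR passed the low-count filter for ATRA in shKDM3B cells only through the treated group and had to differ there, and it was not called for knockdown under ATRA (unadjusted P = 0.0773). In the latter comparison, 1 of 8 receptors was higher and 1 lower, against 2.42% and 4.37% of all genes: IL6ST was higher, with a log2 fold change of 1.12 (unadjusted P = 0.0085), and TNFRSF1B was lower, with −0.90 (unadjusted P = 0.0425). Without ATRA, CCR2 was the 1 receptor of 8 that was higher after knockdown, and ACKR2 was lower (−2.32, unadjusted P = 0.0128), against 3.48% and 3.53% of all genes. ACKR2 passed the low-count filter only through scramble, with 0.552 and 0.671 CPM there and 0.205 and 0.061 CPM in shKDM3B, and had to differ. None of these knockdown calls passed with edgeR's adjusted p.

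Of 40 other chemokine ligands listed, 28 had at most 3 counts in every library. All sampled exon windows of 4 of these, CCL3L3, CCL4L2, CCL14 and CCL18, and some windows of 2 more were copied on an alternate contig, and low counts are reported as counts, not as absence of expression. In scramble cells, 5 of the 6 tested rose with ATRA and none fell (15% of all genes were called higher). CCL24, CCL25 and CCL26, 3 of the 5, passed the low-count filter only through the treated group, so that a rise was built into their selection and the count is a description. CCL24, an eosinophil attractant, went from 0.201 and 0.210 CPM to 30.5 and 51.2 CPM (log2 fold change 7.62, adjusted p = 0.000187 by edgeR), and CCL22, a ligand of CCR4, from 1.91 and 1.43 CPM to 33.5 and 38.1 CPM (4.46, adjusted p = 0.000311). CCL25 had a log2 fold change of 2.99 (adjusted p = 0.0197), and CCL26 reached 0.613 and 1.38 CPM from 0 in both scramble libraries. In shKDM3B cells, 4 of 5 rose (24% of all genes), with the same limit for 3 of them. Knockdown under ATRA lowered 1 of the 4 tested, CCL22, with 19.5 and 16.1 CPM in shKDM3B+ATRA (log2 fold change −1.01, unadjusted P = 0.0104), and knockdown without ATRA changed 0 of 3 by edgeR on the unadjusted P. The shares of all genes were 4.37% lower under ATRA, and 3.48% higher and 3.53% lower without it.

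Among 35 other cytokine genes, 15 were tested in scramble cells, of which ATRA raised 6 and lowered 3, where 15% and 10.8% of all genes were called. Of the 6, IL1A and LIF passed the low-count filter only through the treated group, so that a rise was built into their selection and the count is a description. IL1A, the other IL-1 agonist, reached 1.84 and 4.33 CPM in scramble+ATRA from 0 and 0.0419 CPM, and LIF, a relative of OSM, reached 1.53 and 1.48 CPM from 0.151 and 0 CPM. GRN, which encodes progranulin, rose from 138 and 168 CPM to 595 and 535 CPM (1.92, adjusted p = 0.00189), and TNFSF14 fell (−1.32, unadjusted P = 0.02). In shKDM3B cells, 3 of 11 rose and 1 fell, where 24% and 18.3% of all genes did, so that these counts were near the background. Under ATRA, knockdown lowered 4 of 15 and raised 1, where 4.37% and 2.42% of all genes were called. Of the 4, IL32 and LIF passed the filter only through scramble+ATRA and had to be lower, so that this count is a description too. IL32 was at 2.14 and 2.30 CPM in scramble+ATRA and at 0.105 and 0.301 CPM in shKDM3B+ATRA, LIF at 0.105 and 0.301 CPM in the latter, and GRN at 252 and 310 CPM (log2 fold change −1.01, unadjusted P = 0.00503). IL16 was the fourth (−1.10, unadjusted P = 0.0303), and TNFSF10, which encodes TRAIL, was higher (1.23, unadjusted P = 0.0371). Without ATRA, IL32 was lower (−2.54, unadjusted P = 0.00196) and TNFSF10 higher (0.71, unadjusted P = 0.0137) among 12 tested, against 3.53% and 3.48% of all genes.

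A list mostly of genes for the maturation and release of IL-1β and TNF also held IL18BP, which encodes a binding protein of IL-18. With ATRA, 4 of the 8 tested rose in scramble cells, IL18BP among them, against 15% of all genes called higher. In shKDM3B cells 4 of 9 rose, again with IL18BP, and 1 fell, against 24% of all genes higher and 18.3% lower. CASP1, the protease that cleaves pro-IL-1β, was at 11.6 and 7.80 CPM in scramble, 4.06 and 2.76 CPM in shKDM3B, 32.2 and 39.8 CPM in scramble+ATRA and 42.2 and 53.4 CPM in shKDM3B+ATRA. Its lowest and its highest group were thus both knockdown groups. The log2 fold change with ATRA was 1.93 in scramble cells (standard error 0.29, adjusted p = 0.0062 by edgeR) and 3.89 in shKDM3B cells (standard error 0.24, adjusted p = 1.49e-06), and without ATRA the knockdown gave −1.52 (unadjusted P = 0.00132). RHBDF2, which helps to mature the TNF-shedding protease, rose by 2.57 in scramble cells (adjusted p = 0.00364), and PYCARD, the inflammasome adaptor, by 1.20 (adjusted p = 0.0133). IL18BP (1.70, unadjusted P = 0.024) was at 17.9 CPM in replicate 1 and 76.4 CPM in replicate 2 of scramble+ATRA, the libraries that differed in reads outside genes.

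GSDMD, the pore through which IL-1β leaves the cell, was at 0.502 and 0.210 CPM in scramble and 2.47 and 2.45 CPM in shKDM3B (log2 fold change 2.80, unadjusted P = 0.000405). With ATRA, GSDMD was at 0.490 and 0.645 CPM in scramble and at 0.316 and 4.12 CPM in shKDM3B, where 1 library lay below and 1 above both controls, and it was under the low-count filter for knockdown under ATRA. ADAM10, a sheddase that can release CXCL16, was higher after knockdown without ATRA (0.64, unadjusted P = 0.00257) and with it (0.71, unadjusted P = 0.0086). None of these knockdown calls passed with edgeR's adjusted p.

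Of 12 feedback regulators of inflammatory transcripts, ATRA raised 3 and lowered 3 in scramble cells, and raised 1 and lowered 3 in shKDM3B cells. The shares of all genes were 15% higher and 10.8% lower in scramble cells, below those of the list, and 24% higher and 18.3% lower in shKDM3B cells, where the list had a smaller share higher and a larger share lower. SOCS3, which passed the low-count filter only through the treated group in both cell types, was among the genes called higher, and the counts are a description. SOCS3, an inhibitor of gp130 signalling, rose from 0.452 and 0.336 CPM to 3.49 and 3.04 CPM (3.08, adjusted p = 0.00768 by edgeR). ZFP36L1, a relative of the mRNA-destabilizing protein encoded by ZFP36, fell (−2.40, adjusted p = 0.0436). ZFP36 itself (1.19) and TNFAIP3, an inhibitor of NF-kB signalling (−1.11), were called on the unadjusted P alone. Knockdown without ATRA raised 1 of the 11 tested, TNFAIP3 (0.61, unadjusted P = 0.0111), against 3.48% of all genes, and knockdown under ATRA changed 0 of 11 on the unadjusted P by edgeR, where 6.79% of all genes were called.

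**Figure D4:**
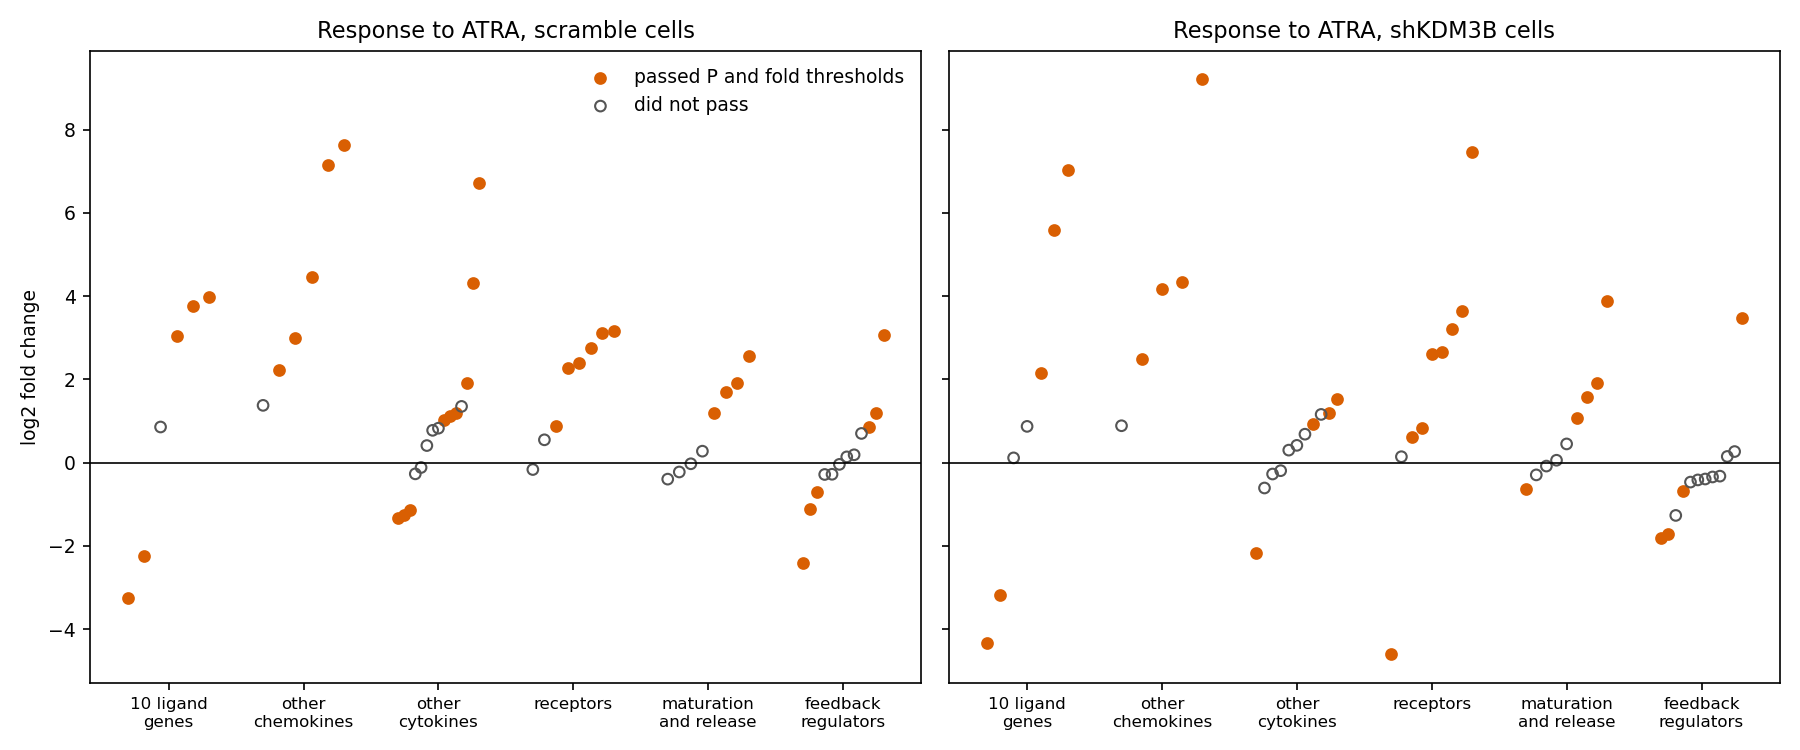
Log2 fold change with ATRA (vertical axis) in scramble cells (left) and shKDM3B cells (right), with 1 point for each tested gene of 6 lists, sorted within a list. Filled points passed an unadjusted P under 0.05 and a fold change of at least 1.5 by edgeR. The other chemokine ligands and the receptors lie mostly above 0, with 5 of 6 and 6 of 8 called higher in scramble cells, and the feedback regulators lie on both sides.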

How the data were processed

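RNA from 8 NB4 libraries was sequenced by the authors as 150-base pairs, aligned to hg38 with HISAT2 and counted per gene with HTSeq, per the study's methods. The deposited files hold whole-number counts without normalization. Groups were taken from the labels. The genes and gene lists were chosen with earlier results of these data known. Each pair of groups was fitted separately with edgeR 4.0.16 (R 4.3.3; filterByExpr, TMM, quasi-likelihood F test), and Benjamini-Hochberg adjusted p-values were taken over all genes of a fit. The standard error was the log2 fold change divided by the square root of F. Levels were CPM with TMM over all 8 libraries, on the names common to all. The named genes were the 10 ligands, KDM3B, every receptor tested, and in each other list up to 4 genes called with ATRA in scramble cells or in a knockdown comparison, by size. Alternatives were DESeq2 1.42.0 as size factors and as test, no filter, adjusted p for calls, a replicate block, all libraries in 1 fit, library size alone, and each library left out. A permutation test of 2 against 2 libraries cannot give a two-sided p below 0.333. Exon windows of 100 bases were searched in hg38 with BLAST 2.17.0. The scripts were tested on simulated data. Protein sequences were not used here. Some genes covered by the lists are not reported here by name.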

Additional observations from a re-analysis of the deposited data

Results flagged for a closer look

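The log2 response to ATRA was larger in shKDM3B than in scramble cells by 3.09 for CCL2 and differed by −2.90 for CXCL8. Both differences passed an unadjusted P under 0.05 in edgeR's interaction test over the 8 libraries (adjusted p = 1 for both). In CPM, mean CCL2 went from 0.818 to 118 in shKDM3B cells and from 38.7 to 591 in scramble cells. Among the genes of the wider lists that the text names, the difference (shKDM3B minus scramble) was 1.93 for CASP1 (unadjusted P = 0.00167, adjusted p = 0.965) and −0.73 for GRN (unadjusted P = 0.0436, adjusted p = 1). ATRA raised CASP1 and GRN in both cell types, with log2 fold changes of 1.93 and 3.89 for CASP1 and of 1.92 and 1.20 for GRN in scramble and in shKDM3B cells.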

How the results depend on the processing

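The number of ligand genes called was 5 for ATRA in scramble cells, 5 for ATRA in shKDM3B cells, 4 for knockdown without ATRA, 2 for knockdown with ATRA and 2 for the difference in response. With adjusted p for calls, the last 3 became 0, 0 and 0, and with the replicate block the counts became 4, 6, 4, 4 and 1. The block took away the call of CXCL2 for ATRA in scramble cells (log2 fold change −2.16, unadjusted P = 0.0513) and added that of CXCL8 for ATRA in shKDM3B cells (0.65, unadjusted P = 0.00567). For knockdown without ATRA, edgeR's adjusted p with the block was 3.97e-07 for CCL2 and 1.09e-05 for CXCL8. It added calls of CXCL8 (−1.53) and IL1B (−2.11) for knockdown with ATRA, and the difference of CCL2 lost its call (3.24). With 1 library left out, which leaves 1 arm with a single library assumed to vary like the other group, they ranged from 4 to 6, 3 to 6, 2 to 3, 1 to 4 and 1 to 2. The lowest of these came without replicate 2 of shKDM3B+ATRA for ATRA in shKDM3B cells, without replicate 1 of scramble for knockdown without ATRA, and without replicate 1 of shKDM3B+ATRA for knockdown with ATRA. Same-numbered libraries correlated in their deviations at −0.066, 0.172, 0.386 and 0.0216 in the 4 comparisons, and the labels do not say that a number marks a shared day or culture.

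Single log2 fold changes that changed sign with a library left out ranged from −0.067 to 0.28 for OSM (ATRA, shKDM3B cells, also −0.034), −0.39 to 1.51 for CXCL8 (the same comparison), −0.25 to 0.024 for IL1RN and −0.060 to 0.87 for CXCL2 (knockdown), −0.42 to 1.31 for CXCL16 (knockdown with ATRA) and −4.99 to 0.0094 for CXCL2 (difference). Among the alternatives run, leaving out a library was the only one under which a ligand gene's direction reversed. All genes called fell from 3213 to 1604 (ATRA, scramble), 971 to 3 (knockdown), 969 to 0 (knockdown with ATRA) and 540 to 0 (difference) with adjusted p, from 969 to 525 with the block (knockdown with ATRA), and rose from 540 to 941 without the filter (difference). With a library left out, they ranged from 1462 to 5142, 943 to 1650, 134 to 5360 and 285 to 2432 in the same 4 comparisons. The causes were not tested. Among the tested ligand genes, depth limits CXCL2, CXCL16 and treated IL1RN, since 3 counts equal 0.092 to 0.316 CPM.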
